A study of Mus musculus with 4 samples.

Results

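The genes described here carry glucose into the cell, split it to pyruvate, turn pyruvate to lactate or admit it to the mitochondrion, and divert glucose into the pentose phosphate pathway. They are 34 genes chosen by name, of 55401 in the deposited table, and all 34 passed the filter on low counts. Poly(A) RNA was sequenced from bone marrow-derived macrophages, cells that mature into macrophages in a dish, taken from C57BL/6J mice. In 2 libraries the marrow cells had received CRISPR-Cas9 lentivirus targeting Adcy7, the gene of an adenylyl cyclase that makes cyclic AMP (Adcy7 knockout). In the other 2 libraries the virus targeted Rosa, a site commonly edited as a harmless control (Rosa control). Both groups thus carried Cas9 lentivirus, added on day 1 after isolation at an infection multiplicity of 30, and differentiated for 5 days. All 4 libraries carried batch number 1, and the labels name no stimulus. The labels give no number of guides, mice or cultures, so p-values rest on the spread between these libraries alone, which may be technical, and differences between cultures or virus preparations go with the target.

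Glycolysis breaks glucose to pyruvate in the cytosol and yields ATP without oxygen. Hexokinase and phosphofructokinase are its early control steps, and lactate dehydrogenase and the monocarboxylate transporters dispose of the end product. Pyruvate dehydrogenase opens the way into the citric acid cycle and is switched off by its kinases, while the pentose phosphate pathway makes NADPH and ribose. Macrophages exposed to bacterial products are known to raise glucose uptake and lactate release.

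Adcy7 was at 59.4 and 58.8 CPM (counts in every 1000000 of that library) in the knockout libraries and at 122 and 125 CPM in the control libraries. The groups did not overlap, and the knockout kept 0.484 of the control level (log2 fold change -1.05, SE 0.09, edgeR adjusted p of 4.6e-06). An mRNA level does not show how many gene copies were edited. The libraries held 61782358 to 71914179 estimated counts. Sampling noise was exceeded within both groups: after division of the counts by 4, chi-square per degree of freedom was 10.7 between knockout and 6.28 between control libraries. General macrophage markers were present in all libraries, with Csf1r at 1168 to 1307 CPM in the knockout and 1806 to 1812 CPM in the control. Of 8 macrophage markers, 7 were lower in the knockout, and Aif1 and Mertk were there below 0.4 CPM. The summed level of the 8 markers was 20171 to 20356 CPM in the knockout and 56176 to 57957 CPM in the control. Most of this sum was Lyz2, at 16468 and 16440 CPM in the knockout and 50358 and 52209 CPM in the control. Cd68 did not pass, at 956 and 894 CPM against 916 and 855 CPM.

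Markers of other cells also moved with the groups. All 6 platelet, 5 of 5 tested mast cell and basophil, 3 of 4 tested eosinophil and 3 of 3 tested erythroid markers were higher in the knockout. Their summed levels were 306 to 345, 26.2 to 27.5, 219 to 279 and 17.2 to 22.5 CPM there, against 183 to 199, 2.50 to 2.86, 30.8 to 33.6 and 2.35 to 2.43 CPM in the control. Most of the platelet sum was Pf4, at 207 and 189 CPM in the knockout and 170 and 153 CPM in the control. Among the mast cell and basophil genes, Cpa3 had only 32 and 8 counts and Ms4a2 only 5 and 21 counts in the control. The erythroid genes Alas2 and Slc4a1 had no count in the knockout. Of 8 neutrophil markers 4 were lower and none higher, with overlapping sums of 3781 to 4902 and 4248 to 4954 CPM. Of 5 B cell markers 3 were higher and 2 lower, with sums near 132 and 165 CPM. One of 3 tested T cell markers and 2 of 5 stromal markers were higher, at sums of 8.09 to 9.15 against 1.35 to 1.51 CPM and of 35.3 to 42.6 against 0.229 to 1.99 CPM. Lum, counted among the higher stromal genes, had no count in the control, so the low-count filter kept it through the knockout alone. The part of these cells in the results that follow was not tested. In bulk RNA, fewer cells of a type and less RNA per cell cannot be told apart.

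In the knockout libraries all 7 lower glycolysis genes were higher, as were Ldha and both lactate transporter genes, while Ldhb was lower. None of the 6 pentose phosphate and 3 pyruvate gate genes among the 34 was called higher. Of the 34 genes, 17 were higher, 9 lower and 8 did not pass the quasi-likelihood test of edgeR at an adjusted p of 0.05. Over all 15832 tested genes, 49.6% passed, 25% higher and 24.6% lower. Among the 3326 tested genes with a mean of at least 50 CPM, 65.8% passed, 29.6% higher and 36.2% lower. Calls of 2-fold or more were made for 8 genes that were higher and 2 that were lower, where the shares over all tested genes were 11.8% and 10.3%. Gapdh was among the 8 by its own counts, and rose 1.51-fold with the counts of its near-identical copies added. The median log2 fold change of the 34 genes was 0.41, against 0.01 over all tested genes. The groups did not overlap for 32 of the 34 genes, where this held for 75.2% of all tested genes. Of all counts, the 34 genes held 3.66% and 3.32% in the knockout against 2.26% and 2.33% in the control. With the copies of Gapdh added, these shares were 4.43% and 4.05% against 2.78% and 2.87%.

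**Figure D1:**
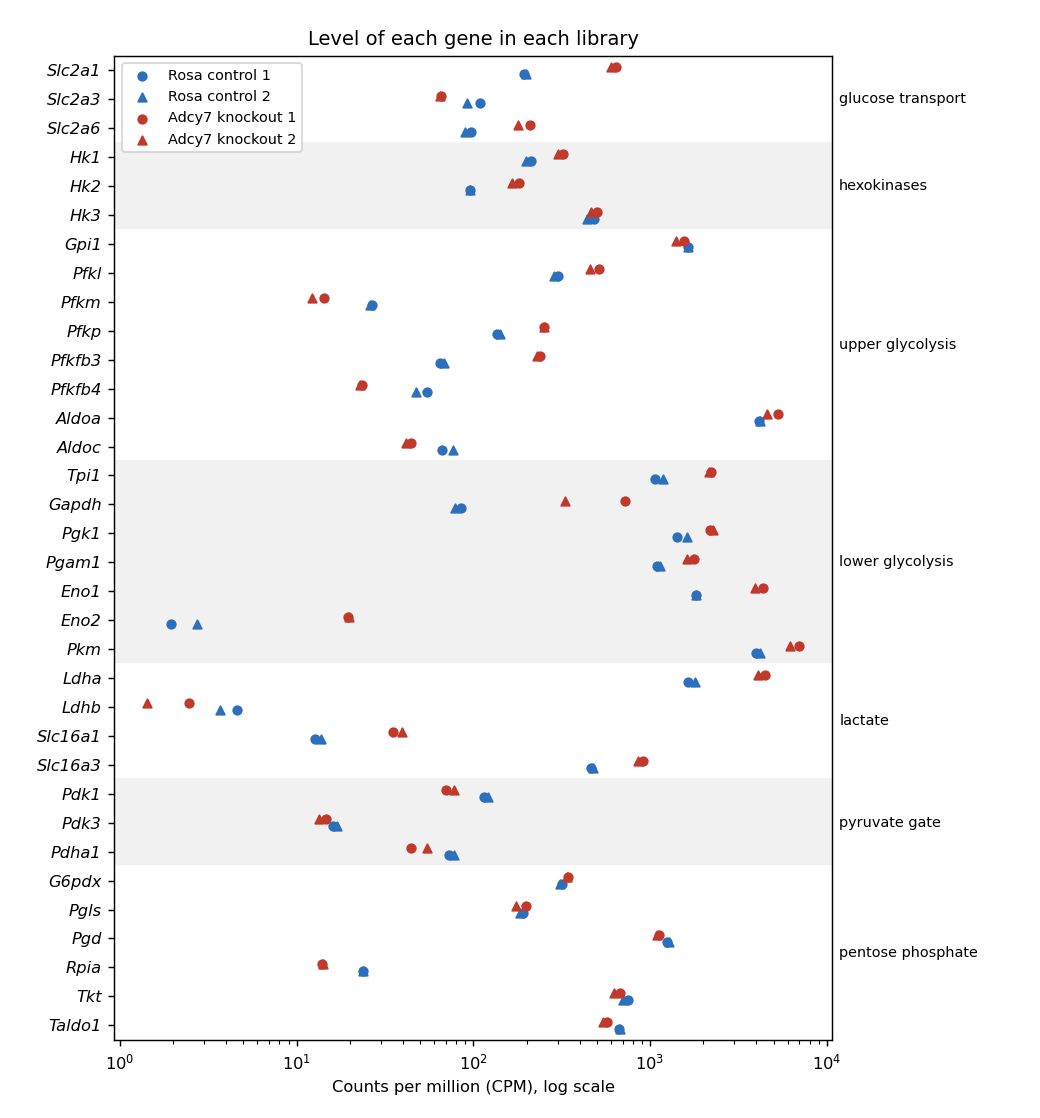
Level of the 34 genes in each of the 4 libraries, in CPM on a log axis, with genes in pathway order and grouped by role; blue marks are the Rosa control, red marks the Adcy7 knockout, circles replicate 1 and triangles replicate 2. The 7 lower glycolysis genes lie to the right in both knockout libraries, while Hk3 and Pgls overlap between groups.

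The sequences before the start sites are shown because hypoxia-inducible factors, which are known to activate many glycolysis genes, bind sites with the core ACGTG or GCGTG. The 250 bases before each RefSeq start (build GRCm38.p6) were searched on both strands for 33 of the 34 genes, which had 47 starts. Some starts of 1 gene lie close together and share bases. The motif ACGTG, which is also contained in CACGTG, was in 16 of these 47 promoters (34.0%) and in 16.6% of all 32851 promoters. It was in 10 of 23 promoters of genes that were higher (43.5%), in 2 of 13 of genes that were lower (15.4%) and in 4 of 11 of genes that did not pass (36.4%). The motif GCGTG was in 28 of the 47 (59.6%), against 28.2% of all. It was in 13 of 23 promoters of genes that were higher (56.5%), 10 of 13 lower (76.9%) and 5 of 11 not passed (45.5%). Either core was in 38 of the 47 (80.9%), against 38.6% of all. By call, either core was in 19 of 23 higher (82.6%), 11 of 13 lower (84.6%) and 8 of 11 not passed (72.7%). The median GC content was 60.4% in the 47 promoters and 52.4% in all. It was 62.8% for genes that were higher, 54.4% for lower and 60.4% for not passed. Among all promoters with at least the GC content of the lowest quartile of the 47, 21.4% held ACGTG and 46.9% held GCGTG. Either core was in 57.2% of them. The longer motif CACGTG was in 4 of the 47 (8.51%, against 6.02% of all), and the AP-1 motif TGACTCA was in 1 (2.13%, against 4.46%).

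The stretches below are 80 bases each, 5′ to 3′ on the gene's strand, with every match of the named motif in capitals. The first 5 are the genes with the largest rises among those holding ACGTG outside annotated exons (in Slc2a1 its last 3 bases reach into one), and the last, Ldhb, has the largest fall among the lower genes with GCGTG there. Pfkfb4 fell further, but its match lies in an annotated exon and is not shown.
Pfkfb3, chr2:11502103-11502182, minus strand: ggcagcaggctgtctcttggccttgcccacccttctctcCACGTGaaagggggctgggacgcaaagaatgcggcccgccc
Slc2a1, chr4:119108634-119108713, plus strand: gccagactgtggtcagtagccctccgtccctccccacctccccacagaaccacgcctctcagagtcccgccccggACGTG
Slc16a1, chr3:104638425-104638504, plus strand: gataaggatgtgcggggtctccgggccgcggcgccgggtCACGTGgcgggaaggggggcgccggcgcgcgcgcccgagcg
Ldha, chr7:46845724-46845803, plus strand: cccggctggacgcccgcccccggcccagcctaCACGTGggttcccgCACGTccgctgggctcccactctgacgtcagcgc
Slc16a3, chr11:120948973-120949052, plus strand: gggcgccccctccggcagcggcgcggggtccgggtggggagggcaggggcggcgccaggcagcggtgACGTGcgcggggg
Ldhb, chr6:142508044-142508123, minus strand: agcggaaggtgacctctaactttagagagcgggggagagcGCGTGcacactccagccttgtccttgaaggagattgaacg
The nearest match shown began 52, 36, 199, 34 and 27 bases before the start in the first 5 and 126 bases before it in Ldhb. Pfkfb3, Slc16a1 and Ldha hold the full CACGTG. A match describes the letters only and does not show that a factor binds there.

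Of the 3 glucose transporter genes 2 were higher and 1 was lower. Slc2a1 (ENSMUSG00000028645), the gene of the main insulin-independent glucose transporter, was at 642 and 601 CPM in the knockout and at 193 and 200 CPM in the control. The groups were far apart, and the rise was 3.21-fold (log2 1.68, SE 0.09, edgeR adjusted p of 1.3e-07). Slc2a6, which codes for a transporter of the lysosomal membrane, was at 209 and 179 CPM against 97.1 and 90.0 CPM, a rise of 2.10-fold (SE 0.11 on the log2 scale, edgeR adjusted p of 1.07e-05). Slc2a3, a high-affinity glucose transporter gene, went the other way, from 109 and 92.1 CPM in the control to 65.5 and 64.5 CPM in the knockout. It fell by 0.61 on the log2 scale (SE 0.10, edgeR adjusted p of 0.000555). Within each library, which needs no scaling between libraries, the Slc2a3 count was 0.566 and 0.462 of the Slc2a1 count in the control libraries and 0.102 and 0.107 of it in the knockout libraries. Set against exon length, Slc2a1 made up 44.8% and 48.4% of the summed level of the 3 transporter genes in the control and 63.3% and 64.8% in the knockout.

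Of the hexokinase genes, whose enzymes trap glucose as glucose 6-phosphate, Hk1 and Hk2 rose. Hk2, the inducible form, was at 180 and 166 CPM in the knockout and at 95.8 and 96.0 CPM in the control, a rise of 1.82-fold (log2 0.87, SE 0.10, edgeR adjusted p of 2.4e-05). Hk1, the housekeeping form, was at 323 and 301 CPM against 212 and 199 CPM, a rise of 1.54-fold (log2 0.62, SE 0.09, edgeR adjusted p of 0.000225). Hk3, the form typical of myeloid cells, was at 504 and 463 CPM in the knockout and at 479 and 442 CPM in the control. The Hk3 groups overlapped, and its log2 fold change of 0.09 (SE 0.09) did not pass. Hk3 was the highest of the 3 per kilobase of exon in every library, with 69.4% to 70.2% of their sum in the control and 60.2% to 60.4% in the knockout.

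The upper part of glycolysis, from glucose 6-phosphate to the trioses, moved in both directions. Of its 8 genes 3 were higher, 3 lower and 2 did not pass. Pfkfb3 (ENSMUSG00000026773), whose enzyme makes fructose 2,6-bisphosphate, the strongest activator of phosphofructokinase, was at 237 and 228 CPM in the knockout and at 65.1 and 68.3 CPM in the control. This rise of 3.53-fold (log2 1.82, SE 0.10, edgeR adjusted p of 7.45e-08) was the largest of the 8. Pfkfb4, the related gene whose enzyme makes and breaks the same molecule, was at 23.5 and 23.0 CPM in the knockout and at 54.9 and 47.1 CPM in the control, and fell by 1.12 on the log2 scale (SE 0.11, edgeR adjusted p of 1.26e-05). The count ratio of Pfkfb4 to Pfkfb3 was 0.844 and 0.689 in the control libraries and 0.0993 and 0.101 in the knockout libraries, a 7.63-fold difference. It was the widest gap of the 14 gene pairs compared within libraries.

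Phosphofructokinase commits sugar to glycolysis and is built from subunits of 3 genes. Pfkl, the liver type, was at 514 and 460 CPM in the knockout and at 303 and 287 CPM in the control, a rise of 1.67-fold (log2 0.74, SE 0.10, edgeR adjusted p of 8.7e-05). Pfkp, the platelet type, was at 253 and 250 CPM against 136 and 141 CPM, a rise of 1.83-fold (log2 0.87, SE 0.09, edgeR adjusted p of 1.41e-05). Both thus moved together, and the Pfkp to Pfkl ratio overlapped between groups, at 0.491 and 0.543 in the knockout and 0.448 and 0.492 in the control. Pitrm1 shares transcript sequence with Pfkp at 1 locus, and its counts were 11.4% and 12.2% of those of Pfkp in the knockout and 20.0% and 18.4% in the control. All 6 platelet markers were higher in the knockout too, at 306 to 345 CPM in sum against 183 to 199 CPM in the control. Most of this sum was Pf4, which rose 1.24-fold, while the others rose from 1.63-fold (Ppbp) to 34.8-fold (Gp1bb). A part of platelet RNA in the Pfkp values was not tested. Pfkm, the muscle type, was the least abundant subunit gene, at 14.2 and 12.2 CPM in the knockout and 26.5 and 25.9 CPM in the control, and fell by 0.97 on the log2 scale (SE 0.13, edgeR adjusted p of 0.000107). Its share of the 3 subunit genes per kilobase was 7.28% and 7.29% in the control and 2.36% and 2.20% in the knockout.

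Gpi1, the isomerase between the hexokinase and phosphofructokinase steps, was at 1548 and 1396 CPM in the knockout and at 1644 and 1638 CPM in the control. Its log2 fold change was -0.14 (SE 0.10), which did not pass. Aldoa, the main aldolase gene of these libraries, was at 5273 and 4567 CPM against 4155 and 4187 CPM, with a log2 fold change of 0.25 (SE 0.11, edgeR adjusted p of 0.0745). It passed under DESeq2 (adjusted p of 0.0215), with library totals alone (0.0457) and without knockout replicate 2 (0.00402). Aldoc, the aldolase gene best known from brain, was at 44.5 and 41.4 CPM in the knockout and 66.5 and 77.2 CPM in the control, and fell by 0.73 on the log2 scale (SE 0.11, edgeR adjusted p of 0.000333). Aldoc was 0.515% and 0.553% of both aldolase genes per kilobase in the knockout and 0.972% and 1.12% in the control.

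All 7 genes of the lower part of glycolysis, from the trioses to pyruvate, were higher. Their summed level was 18277 and 16492 CPM in the knockout and 9428 and 10049 CPM in the control. Eno1 (ENSMUSG00000063524), the main enolase gene, was at 4370 and 3928 CPM in the knockout and at 1817 CPM in each control library, a rise of 2.31-fold (log2 1.21, SE 0.10, edgeR adjusted p of 3.14e-06). Tpi1, the triose phosphate isomerase gene, was at 2218 and 2148 CPM against 1064 and 1176 CPM, a rise of 1.97-fold (log2 0.98, SE 0.10, edgeR adjusted p of 1.26e-05). Both genes separated the groups widely compared with the distance between replicates. Pkm, which codes for the pyruvate kinase of most tissues, was at 6995 and 6177 CPM against 3949 and 4204 CPM, a rise of 1.63-fold (log2 0.71, SE 0.11, edgeR adjusted p of 0.000315). Pgam1, a phosphoglycerate mutase gene, was at 1766 and 1620 CPM against 1088 and 1144 CPM (1.53-fold). Pgk1, the phosphoglycerate kinase gene, was at 2191 and 2270 CPM against 1422 and 1627 CPM (1.48-fold). The edgeR adjusted p was 0.000354 for Pgam1 and 0.000926 for Pgk1, and neither overlapped between groups.

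Eno2, the enolase gene best known as a neuronal marker, had the largest fold change of the 34 genes. It was at 19.4 and 19.8 CPM in the knockout and at 1.95 and 2.75 CPM in the control, a rise of 8.41-fold (log2 3.07, SE 0.19, edgeR adjusted p of 2.24e-07). It stayed a small part of enolase mRNA, at 0.403% and 0.458% of both genes per kilobase in the knockout and 0.0975% and 0.138% in the control.

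The value listed for Gapdh, the glyceraldehyde 3-phosphate dehydrogenase gene often used as a reference, depended on how reads of its copies were counted. Gapdh (ENSMUSG00000057666) was listed at 717 and 329 CPM in the knockout and at 85.2 and 78.3 CPM in the control. The knockout libraries were 2.18-fold apart, the widest gap between knockout replicates of the 34 genes, and the fitted rise was 6.51-fold (log2 2.70, SE 0.28, edgeR adjusted p of 1.56e-05). The log2 fold change was 2.005 without knockout replicate 1 and 3.18 without knockout replicate 2. A search of mouse transcripts found 78 other genes with at least 200 bases that matched Gapdh at 95% identity or more, of which 73 are annotated as processed pseudogenes. These copies held 7719 and 7295 CPM in the knockout and 5234 and 5374 CPM in the control, so Gapdh itself took 8.50% and 4.31% of the counts of the whole set in the knockout and 1.60% and 1.44% in the control. With the counts of the copies added to Gapdh before the fit, the rise was 1.51-fold (log2 0.60, SE 0.11, edgeR adjusted p of 0.000914). In the same fit Tpi1, which acts just before Gapdh, rose 1.97-fold, and the other lower glycolysis genes rose from 1.48-fold (Pgk1) to 8.43-fold (Eno2). The copy Gm12671, 100% identical over 1002 bases, held 52686 and 41504 counts in the knockout, where Gapdh held 51577 and 20325. In the control it held 31536 and 33876 counts, where Gapdh held 5600 and 5471. How reads were shared out among the copies was not stated. The larger value thus describes counts assigned to the annotated gene, which need not follow its mRNA level, and the smaller one the whole set. Genes that overlap a member at its own locus were not taken as copies. Of the other 33 genes, 8 had copies elsewhere, and their counts were at most 8.38% of the counts of the gene itself, reached in Eno1. Adding the copies changed no call, and 17 genes remained higher and 9 lower in number.

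**Figure D2:**
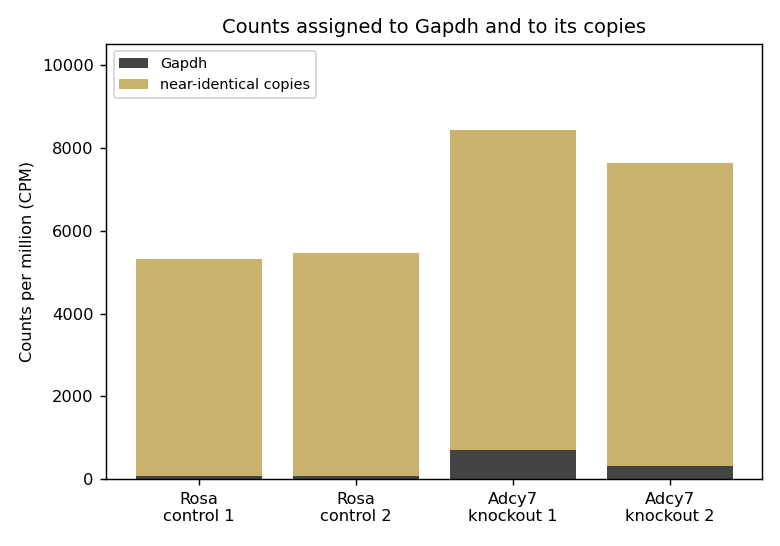
CPM assigned to Gapdh (dark) and to its 78 near-identical copies (light), stacked for each library. Gapdh is a thin part of each bar, and the whole bars stand at 5319 and 5452 CPM in the control and at 8436 and 7624 CPM in the knockout.

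Of the 4 genes of lactate production and transport, 3 were higher and 1 was lower. Ldha (ENSMUSG00000063229), whose subunit favours the step from pyruvate to lactate, was at 4481 and 4106 CPM in the knockout and at 1639 and 1801 CPM in the control, a rise of 2.52-fold (log2 1.34, SE 0.11, edgeR adjusted p of 1.94e-06). Ldhb, whose subunit favours the way back, was at 2.48 and 1.42 CPM in the knockout and at 4.61 and 3.69 CPM in the control. It fell by 1.04 on the log2 scale (SE 0.29, edgeR adjusted p of 0.0117), a call that was lost without the low-count filter (adjusted p of 0.0587) and without knockout replicate 2 (0.0685). The gene was scarce in every library, at 0.407% and 0.297% of both lactate dehydrogenase genes per kilobase in the control and 0.0802% and 0.0504% in the knockout.

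Slc16a3, the gene of the lactate exporter MCT4, was at 916 and 851 CPM in the knockout and at 461 and 477 CPM in the control, a rise of 1.90-fold (log2 0.93, SE 0.09, edgeR adjusted p of 1.21e-05). Slc16a1, the gene of MCT1, which carries lactate in either direction, was at 34.9 and 39.3 CPM against 12.7 and 13.7 CPM, a rise of 2.84-fold (log2 1.51, SE 0.12, edgeR adjusted p of 2.12e-06). The Slc16a3 count was 26.2 and 21.6 times the Slc16a1 count in the knockout and 36.4 and 34.9 times in the control, so Slc16a3 was the larger in all 4 libraries. Bsg, which codes for basigin, the partner that brings both transporters to the cell surface, was at 1193 and 1087 CPM against 438 and 472 CPM (log2 1.34, SE 0.10, edgeR adjusted p of 1.19e-06).

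No gene of the pyruvate gate was higher. Pdha1, the catalytic subunit gene of pyruvate dehydrogenase, was at 44.3 and 54.7 CPM in the knockout and at 73.2 and 77.6 CPM in the control, and fell by 0.60 on the log2 scale (SE 0.11, edgeR adjusted p of 0.00124). Map3k15 shares transcript sequence with Pdha1 at 1 locus, and its counts were 4.59% and 3.82% of those of Pdha1 in the knockout and 13.0% and 8.39% in the control. Pdk1, a kinase gene whose product inhibits the complex, was at 70.1 and 78.2 CPM against 114 and 120 CPM, and fell by 0.65 (SE 0.10, edgeR adjusted p of 0.00023). Enzyme and inhibitor thus moved alike, and the Pdk1 to Pdha1 ratio overlapped between groups, at 1.58 and 1.43 in the knockout and 1.56 and 1.55 in the control. Pdk3, another such kinase gene, was at 14.6 and 13.5 CPM against 16.1 and 16.9 CPM, and did not pass (log2 -0.22, SE 0.13).

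Of the 6 pentose phosphate genes none was higher, 2 were lower and 4 did not pass. The oxidative branch makes NADPH. G6pdx, its entry enzyme gene, was at 345 and 338 CPM in the knockout and at 317 and 311 CPM in the control (log2 0.14, SE 0.09). Pgls, the lactonase gene, was at 199 and 174 CPM against 190 and 184 CPM and overlapped between groups. Pgd, the second dehydrogenase gene of the branch, was at 1124 and 1087 CPM against 1243 and 1280 CPM (log2 -0.18, SE 0.09). None of these 3 passed. The other branch rearranges sugars and yields ribose. Rpia, the ribose 5-phosphate isomerase gene, was at 13.9 and 14.1 CPM against 23.6 and 23.7 CPM, and fell by 0.74 on the log2 scale (SE 0.12, edgeR adjusted p of 0.000438). Taldo1, the transaldolase gene, was at 568 and 541 CPM against 667 and 679 CPM, and fell by 0.26 (SE 0.09, edgeR adjusted p of 0.0308). That call was lost with RLE scaling (adjusted p of 0.0513) and without knockout replicate 2 (0.0676), control replicate 1 (0.143) or control replicate 2 (0.261). Tkt, the transketolase gene, was at 674 and 627 CPM against 753 and 706 CPM, and did not pass (log2 -0.15, SE 0.09).

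**Figure D3:**
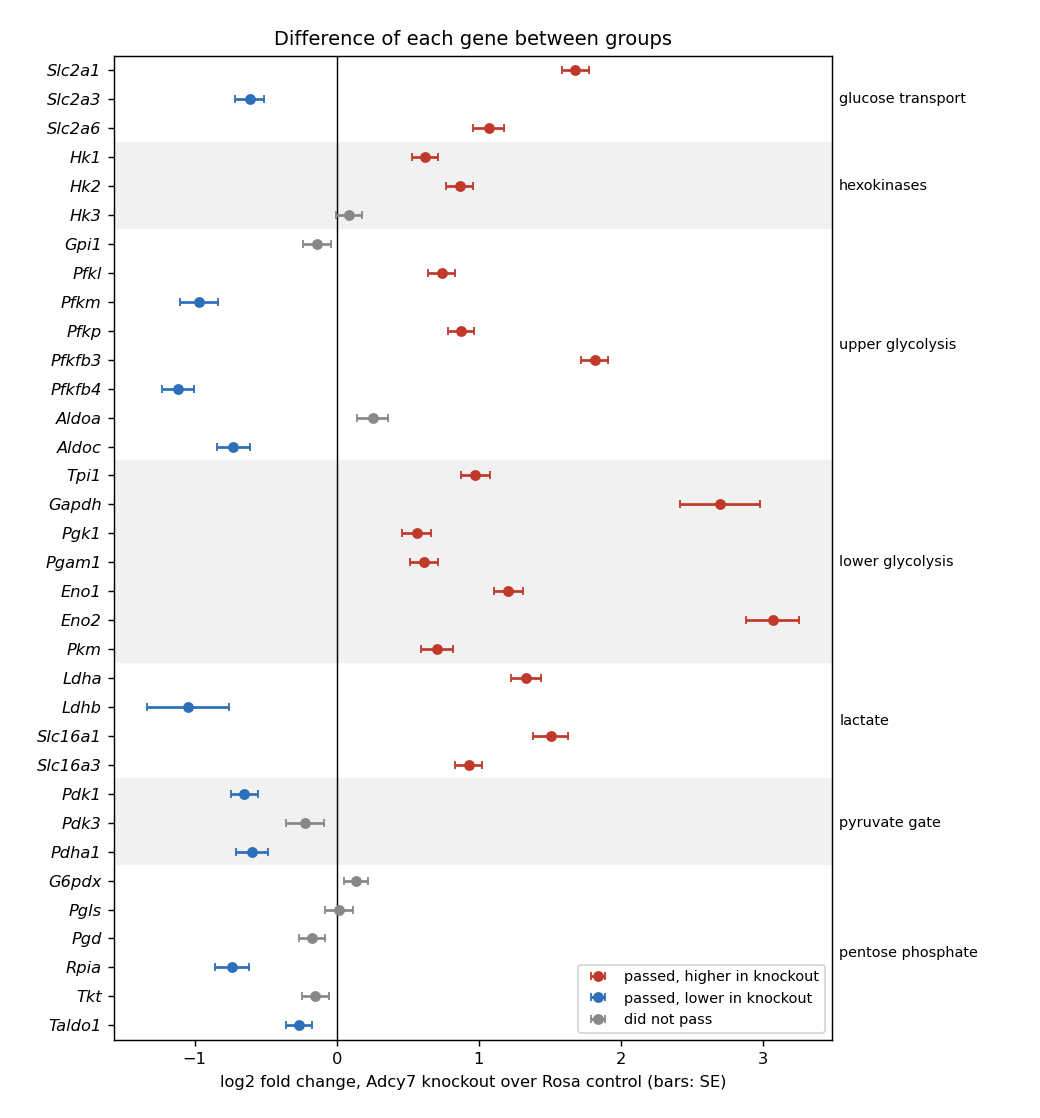
Log2 fold change of each of the 34 genes, Adcy7 knockout over Rosa control, with the standard error as bars; red genes passed as higher, blue genes passed as lower and grey genes did not pass. Lower glycolysis lies wholly to the right of 0 (from 0.56 to 3.07), and the pentose phosphate genes lie between -0.74 and 0.14.

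Set against exon length, and with Gapdh taken without its copies, Aldoa, Pkm and Ldha had the highest mean levels of the 34 genes in both groups. They stood at 2287 ± 12.6, 1569 ± 69.3 and 908 ± 60.3 CPM per kilobase in the control, and at 2697 ± 274, 2534 ± 222 and 2266 ± 140 in the knockout (SD, n = 2 each). In the knockout Aldoa and Pkm overlapped, at 2891 and 2504 against 2691 and 2377 CPM per kilobase, although Aldoa was the higher within each library. In the control these 3 genes were apart from each other. Ldha overlapped there with the next gene, Pgk1, at 865 and 950 against 779 and 892 CPM per kilobase. With the counts of its copies added, Gapdh stood above all of these genes, at 5643 and 5100 CPM per kilobase of its own exons in the knockout and 3558 and 3647 in the control.

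Of the 14 pairs of related genes compared as count ratios within a library, 12 did not overlap between groups. No such share was computed for other gene pairs, and for single genes it was 75.2% of all tested. Some genes are in several pairs, so the ratios are not independent. Pdk1 to Pdha1 sets a kinase gene against the gene of its target and not against a relative. A permutation test of 2 against 2 libraries cannot go below a p of 0.333, so these ratios are given as values. The less abundant relative lost ground in the knockout for Slc2a3 to Slc2a1, Slc2a6 to Slc2a1, Pfkm to Pfkl, Pfkfb4 to Pfkfb3, Aldoc to Aldoa and Ldhb to Ldha, by 4.88-fold, 1.53-fold, 3.28-fold, 7.63-fold, 1.96-fold and 5.49-fold. The less abundant relative gained for Eno2 to Eno1 (3.72-fold), Pdk3 to Pdk1 (1.34-fold) and Hk2 to Hk1 (1.19-fold). It also gained where the ratio is written the other way round, with log2 changes of -0.58 for Slc16a3 to Slc16a1, -0.53 for Hk3 to Hk1 and -0.78 for Hk3 to Hk2. Among the hexokinases, the ratio of Hk3 to Hk1 was 2.27 and 2.22 in the control and 1.56 and 1.54 in the knockout.

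**Figure D4:**
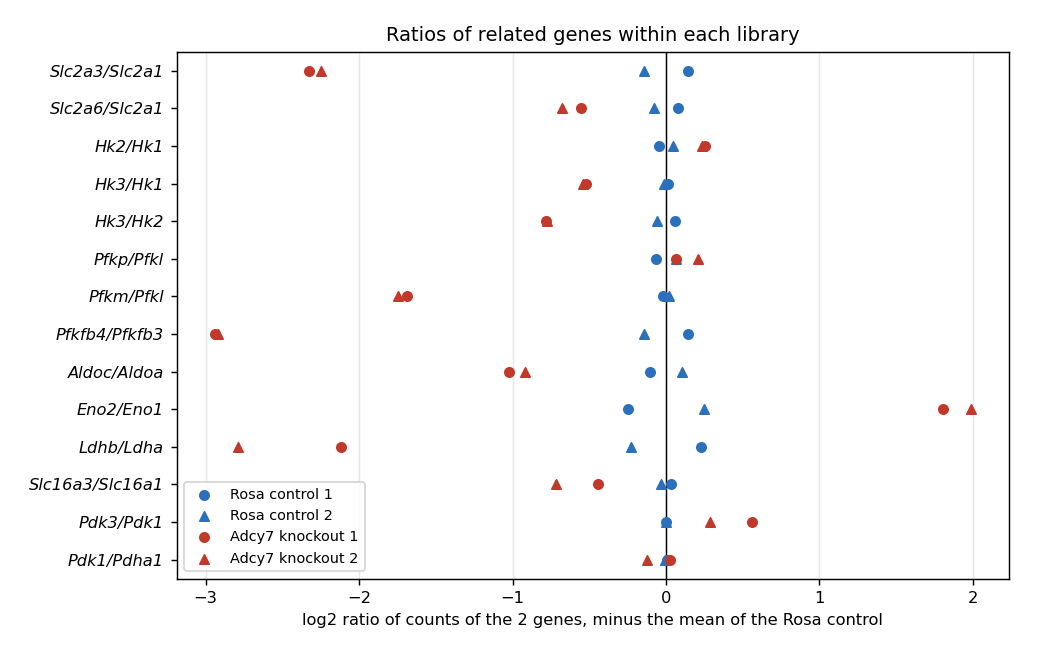
Log2 ratio of the counts of 2 related genes in each library, with the mean of the control libraries subtracted, so that the control lies around 0; blue marks are the Rosa control, red marks the Adcy7 knockout, circles replicate 1 and triangles replicate 2. Pfkfb4/Pfkfb3 lies farthest to the left (difference -2.93) and Eno2/Eno1 farthest to the right (1.90).

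Other genes of the same pathways were taken from lists fixed by name. Of 81 such genes 64 were tested, and 15 were higher, 21 lower and 28 did not pass, with a median log2 fold change of 0.03. Over all tested genes 25% were higher and 24.6% lower, which is the background for each smaller list below as well. Of 9 tested further glycolysis genes only Eno1b passed, at 212 and 196 CPM against 85.6 and 83.9 CPM. Eno1b is one of the near-identical copies of Eno1, and how reads were shared between them was not stated. Tigar, whose enzyme lowers fructose 2,6-bisphosphate, and Pfkfb1 had log2 fold changes of 0.29 (SE 0.13) and -0.52 (SE 0.28). Of 8 further sugar transporter genes 2 were tested and both were lower. Slc2a9, a urate and sugar transporter gene, fell by 2.24 on the log2 scale (SE 0.17, edgeR adjusted p of 1.56e-06), from 21.6 and 17.5 CPM to 4.42 and 3.72 CPM. Slc2a8, an intracellular sugar transporter gene, fell by 0.74 (SE 0.12).

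Of 9 further genes of lactate and pyruvate transport 1 was higher, the basigin gene given above, and 4 were lower. Slc16a6 and Slc16a7, the latter the gene of the monocarboxylate transporter MCT2, had log2 fold changes of -1.56 (SE 0.14) and -1.87 (SE 0.25), with edgeR adjusted p of 5.25e-06 and 9.8e-05. Of 8 tested further genes of the pyruvate dehydrogenase complex and its regulation, 1 was higher and 2 were lower. The kinase gene Pdk2 fell by 1.21 (SE 0.22) and the phosphatase gene Pdp2 fell by 0.77 (SE 0.17), while Pdpr, a regulator of the phosphatase, was higher (log2 0.92, SE 0.22). Of 7 tested further pentose phosphate genes 1 was higher and 4 were lower. H6pd, the enzyme gene of the same oxidative step in the endoplasmic reticulum, was at 160 and 137 CPM against 91.0 and 88.9 CPM (log2 0.74, SE 0.11, edgeR adjusted p of 0.000168). Prps2, which uses ribose 5-phosphate for nucleotide synthesis, and Dera fell by 1.20 (SE 0.12) and 0.62 (SE 0.10).

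Among 14 regulators of these pathways 7 were higher and 3 were lower, where 25% and 24.6% of all tested genes were. Ppargc1a, counted as higher, had 31 and 35 counts in the knockout and none in the control. Mlxipl, counted as lower, had 0 and 6 counts in the knockout and 82 and 104 in the control. The low-count filter kept each of these genes through its higher group alone, so their calls are not separate support. Hif1a, the gene of the oxygen-regulated subunit of hypoxia-inducible factor, was at 175 and 222 CPM in the knockout and at 164 and 191 CPM in the control. The groups overlapped, and its log2 fold change of 0.17 (SE 0.12) did not pass. It passed without knockout replicate 1 (adjusted p of 0.0297). Txnip, whose protein restrains glucose uptake and whose mRNA is known to follow glucose supply, was at 142 and 163 CPM against 473 and 483 CPM, and fell by 1.63 (SE 0.10, edgeR adjusted p of 1.78e-07). Egln3, a prolyl hydroxylase gene, was at 312 and 328 CPM against 172 and 191 CPM (log2 0.83, SE 0.10). Myc, the gene of a growth factor-driven transcription factor, was at 13.3 and 15.6 CPM against 35.6 and 31.1 CPM, and fell by 1.19 (SE 0.13, edgeR adjusted p of 1.69e-05).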

How the data were processed

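For each Ensembl gene the authors deposited an estimated count (an expected count, as a whole number). The submitters' processing notes name HISAT2, StringTie, fastp and edgeR and the build GRCm39; versions, settings and strand handling were not stated there or in the labels. Columns were matched to titles by KO or Rosa and the number. Of counts from 1 to 40, 30.54% to 32.17% were multiples of 4, modestly more than the 1 in 4 of an even spread. Symbols and exon lengths came from an annotation of GRCm38, for names and lengths only; 55141 IDs had a symbol, and the ID with the most counts kept a shared one. After filterByExpr and TMM scaling, groups were compared in edgeR 4.0.16 under R 4.3.3 (quasi-likelihood, legacy = FALSE, 2 residual degrees of freedom, Benjamini-Hochberg over 15832 genes, common dispersion 0.0238); the fit was tested on simulated data. DESeq2 1.42.0 was an alternative. SE is the log2 fold change over the root of the F value. Copies were found with BLAST 2.17.0. The members and lists were chosen with earlier results of these data known. Named genes are all 34 members, Adcy7, Hif1a, Txnip and up to 3 genes with the smallest adjusted p from each other list. Protein sequences were not used here.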

Additional observations from a re-analysis of the deposited data

How the results depend on the processing

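The 34 genes were refitted under 13 other settings, of which the older quasi-likelihood method and the adding of copies were chosen after seeing the data. Of 442 values 431 kept their direction and their side of the threshold, and 30 genes did so under all 13 settings. Aldoa, Ldhb, Taldo1 and Pgls were the exceptions, and the cause was not tested. Pgls, which never passed, had log2 fold changes of -0.0025 with library totals alone and from -0.10 to 0.13 when 1 library was left out. The count of genes that passed, 26, was 25 to 27 under every setting except a 2-fold minimum, which left 10 of the 34, 16 of the other pathway genes and 3508 of all tested genes by its own construction. Gapdh was among these 10 by its own counts alone. No scaling moved the median of all tested genes by more than 0.1 on the log2 scale. Of the 14 ratios, Pdk1 to Pdha1 changed sign when 1 library was left out, with log2 differences from -0.12 to 0.024 (the latter without knockout replicate 2). Replicate numbers did not pair the samples, with a correlation of deviations of 0.015 between groups. With the replicate block 26 of the 34 genes, 37 of the other pathway genes and 7843 of all tested genes passed. Where 1 library is left out, the lone library of its group is assumed to vary like the other group. Ldhb was below 5 CPM in every library, and its call depended on the setting. Eno2, at 1.95 and 2.75 CPM in the control and near 20 CPM in the knockout, kept its call under all 13 settings. With 2 libraries a group, no outlier among replicates can be named.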

Other observations

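Genes of glycogen storage, a side branch of glucose 6-phosphate, moved in both directions. Of 12 tested 3 were higher, 5 lower and 4 did not pass. Ppp1r3c, counted as lower, had 0 and 4 counts in the knockout, so the low-count filter kept it through the control alone. Gys1, the glycogen synthase gene of most tissues, was at 164 and 158 CPM in the knockout and at 98.3 and 95.4 CPM in the control (log2 0.74, SE 0.09, edgeR adjusted p of 5.25e-05). Gyg, whose product glycogenin primes the chain, went from 124 and 119 CPM to 58.6 and 68.3 CPM, and fell by 0.92 on the log2 scale (SE 0.10, edgeR adjusted p of 2.09e-05). Pygb, a glycogen phosphorylase gene, went from 102 and 103 CPM to 49.0 and 43.3 CPM, and fell by 1.14 (SE 0.11, edgeR adjusted p of 6.14e-06).

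Of the 3 genes of the glycerol phosphate shuttle, which carries electrons from glycolysis to mitochondria, Gpd2 was higher and Gpd1l lower. Gpd2, the mitochondrial enzyme gene, was at 66.7 and 68.6 CPM against 49.9 and 52.4 CPM (log2 0.42, SE 0.10, edgeR adjusted p of 0.00452). Without control replicate 1 Gpd2 did not pass (adjusted p of 0.101). Gpd1l fell by 0.71 (SE 0.11, edgeR adjusted p of 0.000264), and Gpd1 was below 0.4 CPM in all libraries and did not pass.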
